A study of Marchantia polymorpha with 12 samples.

Results

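MpLEA-like45 (Mp6g03120) and MpLEA-like9 (Mp2g26450) are 2 genes of the liverwort Marchantia polymorpha whose symbols place them among the late embryogenesis abundant (LEA) proteins. They were selected by identifier from a table of 18336 genes, because earlier results of the same libraries had shown them near 0 in the wild types and high in both mutant lines. That contrast is therefore given as a description, with no test.

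The libraries fell into 4 groups of 3, each with replicates A, B and C, made from thalli with their rhizoids grown from gemmae for 3 weeks. Tak-1 is the male and Tak-2 the female wild-type strain. The male line Mpfer-1 is labelled as a knockdown of MpFER, and the female line Mpmri-1 as a knockdown of MpMRI. Each gene was represented by 1 line, so that the line, its targeted gene and its sex cannot be told apart, and the labels do not say whether replicates were separate cultures. P-values therefore measure the spread between these libraries, which may be technical. The study set each line, which has short rhizoids that burst, against the wild type of its sex to look for pathways that MpFER and MpMRI control.

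LEA proteins are small, very hydrophilic proteins that accumulate in seeds, spores and vegetative tissue as cells dry, and they are thought to protect membranes and other proteins during water loss. In land plants many LEA genes are switched on by the hormone abscisic acid, which acts through PYR/PYL receptors, protein phosphatases, SnRK2 kinases and transcription factors of the ABI3 and ABI5 types. In Marchantia, too, abscisic acid raises LEA transcripts and desiccation tolerance in vegetative tissue. FERONIA, the Arabidopsis counterpart of MpFER, is a receptor-like kinase that monitors the cell wall and restrains abscisic acid signalling, and MARIS, the counterpart of MpMRI, is a receptor-like cytoplasmic kinase that acts downstream of receptors of this family in root hairs and pollen tubes.

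Library totals lay between 25548031 and 35313206 estimated counts. Levels are given as CPM, counts divided by the library total as adjusted by TMM, a factor that sets the bulk of genes equal between libraries. MpFER (Mp4g15890) ranged from 154 to 169 CPM in Tak-1 and from 89.0 to 102 CPM in Mpfer-1, a fall by 0.78 on the log2 scale (SE 0.081, edgeR adjusted p = 7.18e-06). MpMRI (Mp7g17560) had 264 to 269 CPM in Tak-2 and 649 to 764 CPM in the Mpmri-1-labelled libraries, which is against the direction of the label (log2 fold change 1.40, SE 0.078, edgeR adjusted p = 4.42e-08). The tissue label was checked against marker genes. The rhizoid gene MpRSL1 had 8.70 to 20.3 CPM in all libraries, and the air chamber genes MpNOP1 and MpWIP were also detected. Of 4 gametangium and germ line genes, MpBNB and MpPRM were at or near 0, MpDUO1 had 0.472 to 1.15 CPM and MpRKD 81.3 to 153 CPM. MpRBCS, for the small subunit of Rubisco, was at 265 to 308 CPM in Tak-1 against 76.0 to 89.1 in Mpfer-1, but at 137 to 193 in Tak-2 against 184 to 294 in the Mpmri-1-labelled libraries. Of 3 oil body genes, MpC1HDZ had 31.8 to 43.5 CPM in the wild types and 63.2 to 88.8 CPM in the mutant lines, MpMYB02 had 8.25 to 10.5 and 9.96 to 16.9 CPM, and MpERF13 had 5.78 to 8.26 and 4.97 to 9.70 CPM. The part of these markers in the results below was not tested. In these bulk samples a change in the number of cells of a type and a change in RNA per cell cannot be told apart.

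MpLEA-like45 had no count in any Tak-1 library and at least 7932 counts in every Mpfer-1 library. It had 0, 0 and 0 counts in Tak-1 replicates A, B and C, against 9001, 7932 and 18739 counts in Mpfer-1. In CPM the Mpfer-1 libraries stood at 260, 244 and 456, a mean of 320 ± 118 (SD, n = 3). All Mpfer-1 libraries were far above all Tak-1 libraries, with replicate C above the other two. Folds of these 2 genes are ratios of counts pooled over the libraries of a group to their pooled adjusted totals, not of the mean CPM. Against a floor of 3 counts over the Tak-1 libraries, the pooled level in Mpfer-1 was at least 10648-fold higher, a bound that dropped to 6798 without Tak-1 replicate C.

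In the female pair MpLEA-like45 had 4, 2 and 1 counts in Tak-2, which is 0.167, 0.0734 and 0.0340 CPM. It had 2603, 8066 and 812 counts in the Mpmri-1-labelled libraries, which is 122, 272 and 26.8 CPM (mean 140 ± 124, SD, n = 3). The lowest of these was still far above every Tak-2 library. The pooled level was 1626-fold higher in the Mpmri-1-labelled libraries, with a 95% counting interval of 789 to 4045 that covers counting error only. Single libraries moved that ratio by more than 1.5 times: it was 761 without Mpmri-1 replicate B and 2665 without Tak-2 replicate A.

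MpLEA-like9 followed the same course. Tak-1 libraries held 0, 0 and 4 counts and Mpfer-1 libraries 11582, 11148 and 22634 counts, the latter being 335, 344 and 551 CPM (mean 410 ± 122, SD, n = 3). Again the groups were far apart, and replicate C was the highest in Mpfer-1. The ratio of the pooled levels was 10155, with a 95% counting interval of 3966 to 37274. All 4 counts in Tak-1 came from replicate C, and without that library the pooled Mpfer-1 level was at least 8645-fold higher.

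In Tak-2, MpLEA-like9 had 1 count in each library. In the Mpmri-1-labelled libraries it had 5670, 14924 and 1278 counts, which is 266, 503 and 42.1 CPM (mean 270 ± 230, SD, n = 3). No Mpmri-1 library came near the Tak-2 level, and the ratio of the pooled levels was 7228 with a 95% counting interval of 2473 to 35053. It was 3615 without Mpmri-1 replicate B and 10855 without replicate C. Between the wild types no fold is given for either gene, since both genes were at a few counts in each.

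**Figure D1:**
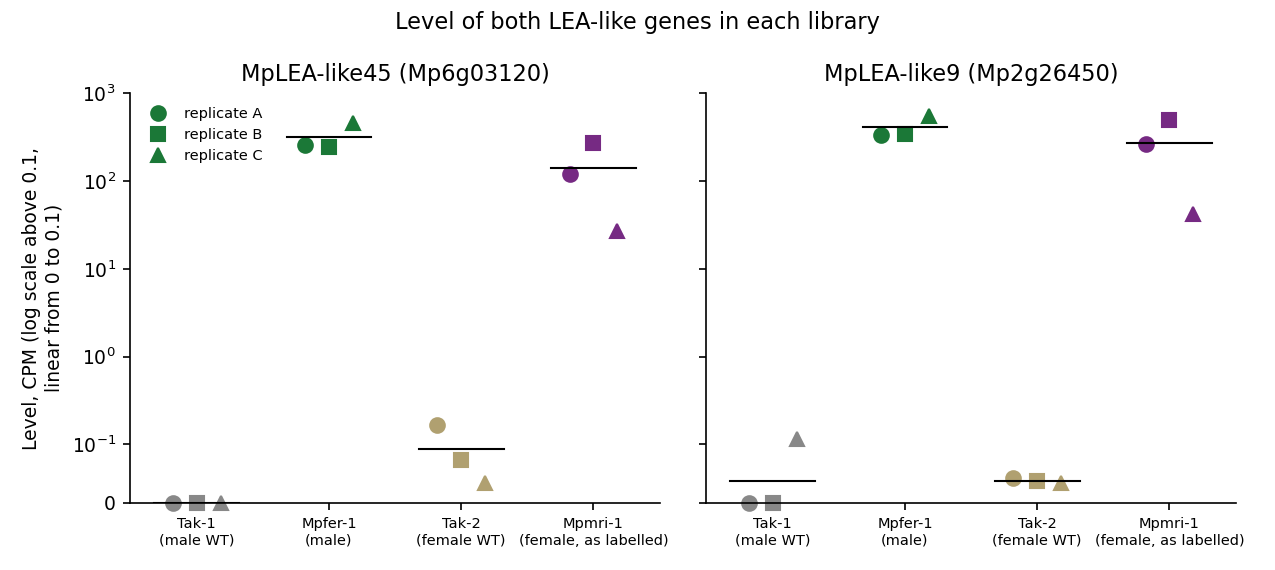
CPM of MpLEA-like45 and MpLEA-like9 in each of the 12 libraries on a log axis, grouped by strain or line, with each point 1 library. Mpfer-1 libraries lie between 244 and 551 CPM and libraries labelled Mpmri-1 between 26.8 and 503 CPM, all far above the wild types.

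Few genes made a switch of this kind by a strict rule, which restates the contrast behind the choice of both LEA genes. Of 14044 genes that passed the filter on low counts, 11 had at most 10 counts over each wild type and at least 10 CPM in every mutant library. Both LEA genes are among them, which follows from that choice and is not a test. MpLEA-like12 and MpLEA-like28 are also among them, named after their values had been seen. MpLEA-like28 had at most 0.0734 CPM in any wild-type library, 215 to 428 CPM in Mpfer-1 and 24.6 to 283 CPM in the Mpmri-1-labelled libraries. The set also held MpPR15l and 6 genes with no symbol, among them Mp2g26440, the next locus to MpLEA-like9. The size of the set depends on the CPM cutoff and on Mpmri-1 replicate C. MpLEA-like43, MpLEA-like46 and MpLEA-like10, also near 0 in the wild types, missed the cutoff in that library only, with 9.23, 8.57 and 8.93 CPM. At a log2 fold change of at least 5, 208 of the 14044 genes were higher in both lines. They included 33 of the 65 other LEA genes tested. Of those 65, 26 passed the filter only through a mutant group and so had to be higher, with median log2 fold changes of 11.3 and 8.44. The 33 are therefore not read as an excess.

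The replicates labelled Mpmri-1 were spread much more widely than those of Mpfer-1. For MpLEA-like45 the highest library exceeded the lowest 10.2-fold in Mpmri-1 and 1.87-fold in Mpfer-1, with coefficients of variation of 88.1% and 36.9%. For MpLEA-like9 the same ratios were 11.9 and 1.65, with coefficients of variation of 85.3% and 29.9%. Both genes were highest in replicate B, intermediate in A and lowest in C.

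That order was shared by most other LEA genes. Among 65 other LEA genes that passed the filter, 49 (75.4%) were highest in Mpmri-1 replicate B and lowest in replicate C, against 15.7% of all genes tested with counts there. The median LEA gene differed 4.37-fold between its highest and lowest Mpmri-1 library, against 1.33-fold over all genes. A difference of at least 5-fold was seen in 31 of the 65 LEA genes (47.7%) and in 2.35% of all genes. The order was also common among other widely spread genes: of the 326 genes with such a difference, 209 (64.1%) were highest in B and lowest in C, and 177 of those 209 were not LEA genes. In Mpfer-1, replicate C was the highest for 51 of 65 LEA genes (78.5%), against 34.5% of all genes, with a median high-to-low ratio of 1.64 against 1.17.

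Library totals were 26728644, 33798036 and 32576647 counts for Mpmri-1 replicates A, B and C. MpMRI itself had 698, 649 and 764 CPM there. Summed over the 67 other LEA genes, the level was 6302, 10708 and 2657 CPM in the Mpmri-1-labelled libraries, 8849, 8377 and 12466 CPM in Mpfer-1, and 1192 to 1607 CPM in the wild types. What set replicates B and C apart was not tested.

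**Figure D2:**
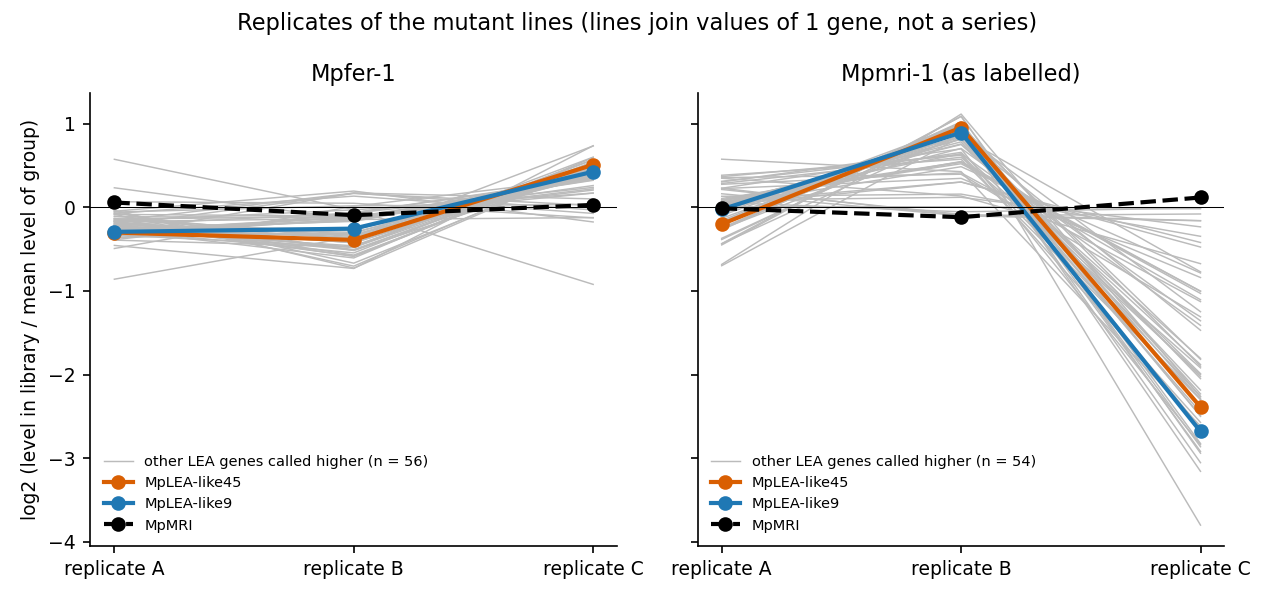
Log2 of the CPM in each replicate of a mutant line over the mean of that line, for MpLEA-like45, MpLEA-like9, MpMRI (dashed) and, in grey, the other LEA genes called higher (56 in Mpfer-1, 54 in Mpmri-1); lines join the values of 1 gene. In each line, 26 of the genes in grey passed the filter only through a mutant group and so had to be higher. Over all genes tested, 29.1% were called higher in Mpfer-1 and 33.0% in the Mpmri-1-labelled libraries. In the Mpmri-1-labelled libraries, 49 of 65 other LEA genes share the order in which replicate B is highest and replicate C lowest.

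The mutant lines could be compared directly, since that contrast did not choose the genes. MpLEA-like45 was lower in the Mpmri-1-labelled libraries than in Mpfer-1 by a log2 fold change of -1.19 (SE 0.61, 95% interval -2.56 to 0.17), which did not pass the test (edgeR adjusted p = 0.128). MpLEA-like9 had a log2 fold change of -0.60 (SE 0.58, 95% interval -1.86 to 0.66), which also did not pass (edgeR adjusted p = 0.401). For comparison, 51.4% of all genes tested were called in that contrast. The intervals do not show that the levels were alike, and leaving out Mpmri-1 replicate B moved MpLEA-like45 to -2.11 (edgeR adjusted p = 0.0116) and MpLEA-like9 to -1.42 (edgeR adjusted p = 0.0531). With library totals in place of TMM, MpLEA-like45 was at -1.63 (edgeR adjusted p = 0.0384), where the median of all genes shifted by -0.42.

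The CPM of MpLEA-like9 divided by that of MpLEA-like45 was 1.29, 1.41 and 1.21 in Mpfer-1 and 2.18, 1.85 and 1.57 in the Mpmri-1-labelled libraries. The means were 1.30 ± 0.0995 and 1.87 ± 0.303 (SD, n = 3). The ratio was chosen after its values had been seen and is given with no test, and it compares libraries, not the levels of the genes, because gene length was not taken into account.

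Both genes have 1 transcript model. The deposited values of MpLEA-like45 were fractional in 6 of the 9 libraries above 0, all of them mutant libraries, whereas those of MpLEA-like9 were whole in all 10 libraries above 0. Because MpLEA-like45 stands among other LEA genes and the way reads were assigned is not known, its level is uncertain to that extent; what made the values fractional was not tested.

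Both genes stand in runs of LEA genes along their chromosomes, by the order of the locus numbers. The runs were delimited after the values had been seen and are described without a test of their own. MpLEA-like45 belongs to a run on chromosome 6, from Mp6g02960 to Mp6g03130, with 17 loci of which 14 carry LEA in the symbol. The other 13 LEA genes passed the filter only through a mutant group, so they had to be higher there. Of these, 5 had no count in Tak-1, and the other 8 had log2 fold changes of 5.53 to 12.69 in Mpfer-1. In Tak-2, 4 had no count, and the other 9 had log2 fold changes of 5.17 to 10.32 in the Mpmri-1-labelled libraries. With absent genes at their lower bound, the medians were 10.07 and 7.003. The 3 loci of the run without LEA in the symbol had log2 fold changes of only -0.18 to 0.86 and 0.81 to 1.86. The 7 tested flanking genes, which include MpMCA-IIb, MpH1 and MpHAT13, lay between -0.31 and 0.52 and between -0.20 and 0.96.

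MpLEA-like45 supplied 36.3 to 37.2% of the summed LEA CPM of its run in Mpfer-1 and 31.4 to 40.8% in the Mpmri-1-labelled libraries. Its neighbours MpLEA-like43, MpLEA-like44 and MpLEA-like46 all had at most 0.0833 CPM in any wild-type library. MpLEA-like43 had 78.7, 65.3 and 142 CPM in Mpfer-1 and 43.4, 58.4 and 9.23 CPM in the Mpmri-1-labelled libraries. MpLEA-like46 had 104, 110 and 158 CPM in Mpfer-1 and 47.5, 84.7 and 8.57 CPM in the Mpmri-1-labelled libraries. Both showed the replicate order of MpLEA-like45 in Mpmri-1, as did 12 of the 13 other LEA genes of the run. Of its 14 LEA genes 13 had fractional values, and the sum over the 14 was itself 0.203 to 0.438 away from a whole number in every mutant library.

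MpLEA-like9 lies on chromosome 2 between Mp2g26440, which has no symbol, and MpLEA-like10. Its run, from Mp2g26410 to Mp2g26460, holds 2 other LEA genes and 2 loci without LEA in the symbol. One of these loci, Mp2g26430, had at most 24 counts in any library and log2 fold changes of 2.40 and 1.84. Mp2g26440 had 386, 348 and 626 CPM in Mpfer-1 and 310, 570 and 56.2 CPM in the Mpmri-1-labelled libraries. MpLEA-like10 had 65.9, 54.0 and 111 CPM in Mpfer-1 and 57.4, 65.6 and 8.93 CPM in the Mpmri-1-labelled libraries. Both had the replicate order of MpLEA-like9 in the Mpmri-1-labelled libraries, and MpLEA-like10 had at most 0.110 CPM in any wild-type library. MpLEAL7, a few loci away, had log2 fold changes of 11.64 and 10.71. Both MpLEAL7 and MpLEA-like10 passed the filter only through a mutant group, so they had to be higher there. The same holds for Mp2g26440, with at most 3 counts in any wild-type library. The 7 tested flanking genes had log2 fold changes of -0.45 to 5.45 in Mpfer-1 and -0.15 to 6.25 in the Mpmri-1-labelled libraries.

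**Figure D3:**
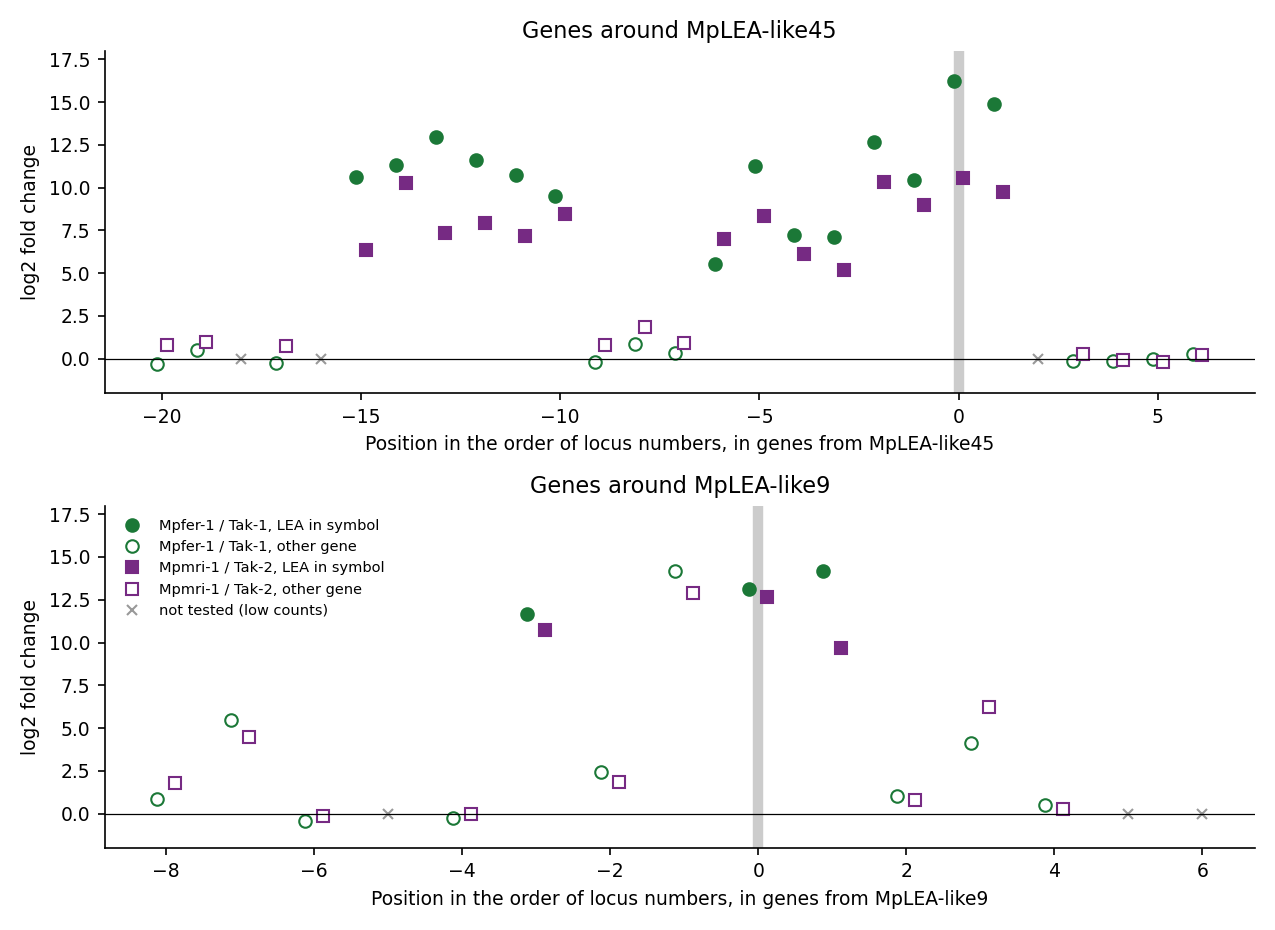
Log2 fold change of each tested gene in locus order around MpLEA-like45 and MpLEA-like9, for Mpfer-1 against Tak-1 and for the Mpmri-1-labelled libraries against Tak-2, with LEA genes marked. Values are fitted, and those of genes absent from a wild type depend on the fit. On chromosome 6 the fitted values of LEA genes lie at 5.17 or above, and the flanking genes at 0.96 or below.

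The other LEA genes moved mostly upward. Of 67 with LEA in the symbol besides these 2, 65 passed the filter, but 26 of those passed only through a mutant group and so had to differ. Of the 39 that passed on the wild types alone, 30 rose and 3 fell in Mpfer-1, and 28 rose and 4 fell in the Mpmri-1-labelled libraries (edgeR, adjusted p under 0.05). Over all genes tested, 29.1% rose and 27.1% fell in Mpfer-1, and 33.0% rose and 31.1% fell in the Mpmri-1-labelled libraries. The median log2 fold changes over the 39 were 1.96 and 1.64, against 0.022 and 0.0015 over all genes. None of the 39 lies in the runs around MpLEA-like45 and MpLEA-like9.

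The LEA genes of highest level in the mutant libraries included MpLEAL1, at 1.60 to 4.42 CPM in the wild types, 1898 to 2987 CPM in Mpfer-1 and 841, 2158 and 294 CPM in the Mpmri-1-labelled libraries. These genes were picked by their level in the mutant libraries, so their changes are described with no test. The log2 fold changes of MpLEAL1 were 9.80 in Mpfer-1 and 8.27 in the Mpmri-1-labelled libraries. Those of MpLEA-like49, MpLEA-like14 and MpLEA-like48 were 10.52, 11.79 and 10.74 in Mpfer-1 and 8.02, 9.01 and 8.93 in the Mpmri-1-labelled libraries.

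Several LEA genes did not follow MpLEA-like45 and MpLEA-like9. MpLEA-like33 was at 133 to 144 CPM in Tak-1, against 33.4 to 36.1 CPM in Mpfer-1, and 343 to 378 CPM in Tak-2 and 94.5 to 141 CPM in the Mpmri-1-labelled libraries. It fell by 1.98 and 1.52 on the log2 scale (edgeR adjusted p = 3.08e-07 and 9.65e-07). MpLEA-like54 fell by 3.20 and 2.25 (edgeR adjusted p = 4.75e-07 and 3.71e-06), and MpLEA-like5 fell by 1.80 and 2.84 (edgeR adjusted p = 0.000108 and 1.07e-05). MpLEA-like6, at 317 to 578 CPM in every library, had a log2 fold change of -0.09 in Mpfer-1 (edgeR adjusted p = 0.503), positive with library totals in place of TMM, and of 0.59 in the Mpmri-1-labelled libraries (edgeR adjusted p = 0.000362). Only a gene with a level in the wild types can fall, and most of the 39 LEA genes that passed on the wild types alone rose.

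Between the mutant lines, 17 of the 65 other LEA genes were lower and 7 higher in the Mpmri-1-labelled libraries (edgeR, adjusted p under 0.05), with a median log2 fold change of -0.75. Over all genes tested, 24.2% were lower and 27.2% higher. The count of lower genes rested on single libraries, from 8 without Mpfer-1 replicate C and 9 without Mpmri-1 replicate A to 40 without Mpmri-1 replicate B, and with library totals in place of TMM it was 37, with 3 higher. There, 16.2% of all calls were higher, against 52.9% with TMM.

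**Figure D4:**
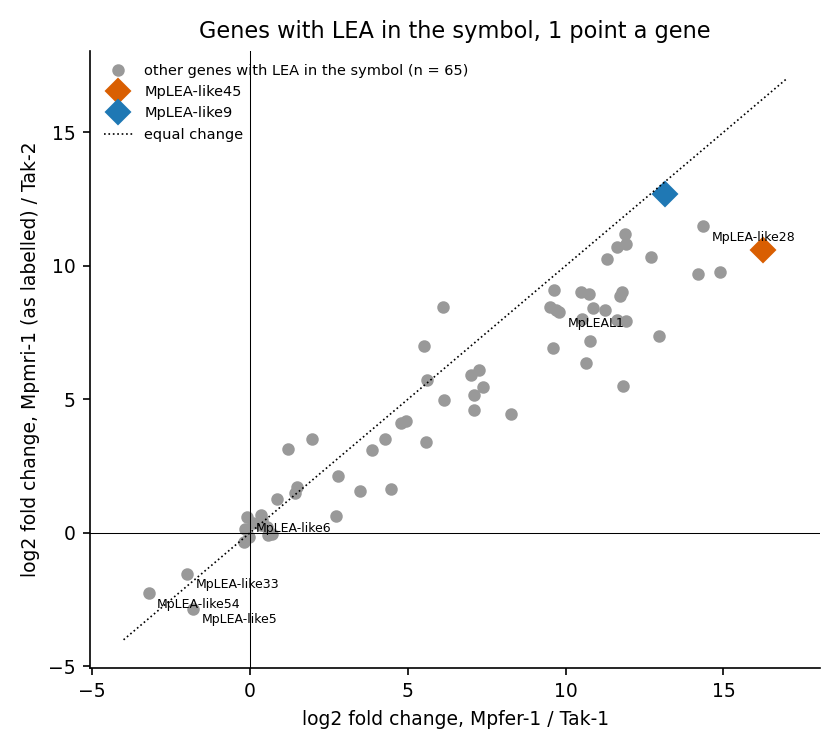
Log2 fold change of each tested LEA gene in Mpfer-1 against Tak-1 and in the Mpmri-1-labelled libraries against Tak-2, with MpLEA-like45 and MpLEA-like9 marked. Most genes lie above 0 on both axes, and MpLEA-like5, MpLEA-like33 and MpLEA-like54 lie below 0 on both. Of the other LEA genes, 26 passed the filter only through a mutant group and so had to lie above 0.

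By Pearson's r of log2(CPM + 1) over the 12 libraries, the genes most like MpLEA-like45 were Mp3g21570, Mp2g15740 and Mp5g17310, and those most like MpLEA-like9 were Mp2g26440, Mp6g06570 and Mp3g17370, none with a symbol. With log2(CPM + 0.1), MpLEA-like45 shared 0 of these 3 and was nearest to MpLEA-like48, Mp1g03150 and MpLEA-like46, and MpLEA-like9 shared 2 of 3. With log2(CPM + 1), the nearest gene had an r of 0.9997 for both LEA genes. The r between the LEA genes themselves was 0.998 (rank 18 in the list of MpLEA-like45 and 15 in that of MpLEA-like9). These values mostly restate the gap between wild type and mutant, and are descriptions over libraries that share that gap. Over the 6 mutant libraries alone, MpLEA-like9 had an r of 0.975 with MpLEA-like45 (rank 134 in the list of MpLEA-like45 and 82 in that of MpLEA-like9). There the nearest genes were Mp1g26550 for MpLEA-like45 and Mp3g10050 for MpLEA-like9, each with an r of 0.999. Mp2g26440 had an r of 0.998 with MpLEA-like9 (rank 3).

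Genes of the abscisic acid pathway moved in both directions. Of 13 listed genes 10 passed the filter, and MpPYL2, MpPYL4 and MpPYL5 did not, being near 0. In Mpfer-1, 5 rose and 3 fell, and in the Mpmri-1-labelled libraries, 6 rose and 2 fell (edgeR, adjusted p under 0.05), with median log2 fold changes of 0.21 and 0.34. The background shares of rising and falling genes are those given for the LEA genes, and no phosphatase of the list could be matched to a symbol.

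Among genes of synthesis, MpNCED encodes the dioxygenase that makes the committed step. Its level was 0.632, 0.786 and 0.771 CPM in the Tak-1 libraries, against 4.36, 4.38 and 6.79 CPM in Mpfer-1. It had 0.500, 0.551 and 0.510 CPM in Tak-2 and 2.86, 2.97 and 1.05 CPM in the Mpmri-1-labelled libraries. Like the 2 LEA genes it was highest in replicate C of Mpfer-1 and lowest in C of Mpmri-1. Replicates A and B of Mpmri-1 were nearly level for MpNCED, unlike for the 2 LEA genes. Over all genes tested, 34.5% were highest in C of Mpfer-1, and 15.7% were highest in B and lowest in C of Mpmri-1. MpNCED rose in both comparisons (log2 fold changes 2.82 and 2.12, SE 0.35 and 0.38, edgeR adjusted p = 2.96e-05 and 0.000461). MpABA1, for zeaxanthin epoxidase, fell by 0.64 and 0.57 (edgeR adjusted p = 9.31e-05 and 0.000186). MpABA4, needed for neoxanthin in Arabidopsis, rose in Mpfer-1 (log2 fold change 0.62, edgeR adjusted p = 0.0019) and had a log2 fold change of -0.19 in the Mpmri-1-labelled libraries (edgeR adjusted p = 0.244), which passed with library totals in place of TMM (-0.33, edgeR adjusted p = 0.042).

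MpCYP707A, for the hydroxylase that breaks abscisic acid down, was at 3.34 to 3.86 CPM in Tak-1, against 2.62 to 5.06 CPM in Mpfer-1 (log2 fold change 0.070, edgeR adjusted p = 0.817). It had 0.551 to 0.816 CPM in Tak-2 and 4.62 to 6.46 CPM in the Mpmri-1-labelled libraries (log2 fold change 2.93, edgeR adjusted p = 2.19e-06). Its highest Mpmri-1 library was replicate C, in which MpLEA-like45 and MpLEA-like9 were lowest. Its highest Mpfer-1 library was also replicate C, in which MpLEA-like45 and MpLEA-like9 were highest. Replicate C was the highest for 38.7% of all genes tested in Mpmri-1 and for 34.5% in Mpfer-1. Replicate orders are given for MpNCED and MpCYP707A alone among the abscisic acid genes, and a link to the LEA genes was not tested.

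The receptor gene MpPYL1 rose in the Mpmri-1-labelled libraries (log2 fold change 0.32, edgeR adjusted p = 0.00201) and had -0.11 in Mpfer-1 (edgeR adjusted p = 0.192), positive with library totals in place of TMM. The kinase gene MpSNRK2A rose in both (0.35 and 0.36, edgeR adjusted p = 0.00163 and 0.0011). MpSNRK2B fell by 0.30 in Mpfer-1 (edgeR adjusted p = 0.00138), a call lost with library totals in place of TMM. Of the transcription factor genes, MpABI5B rose by 1.66 and 0.69 on the log2 scale (edgeR adjusted p = 2.6e-06 and 0.00154) and MpABI3A by 1.37 and 1.02, while MpABI5A fell by 0.92 and 0.98.

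**Figure D5:**
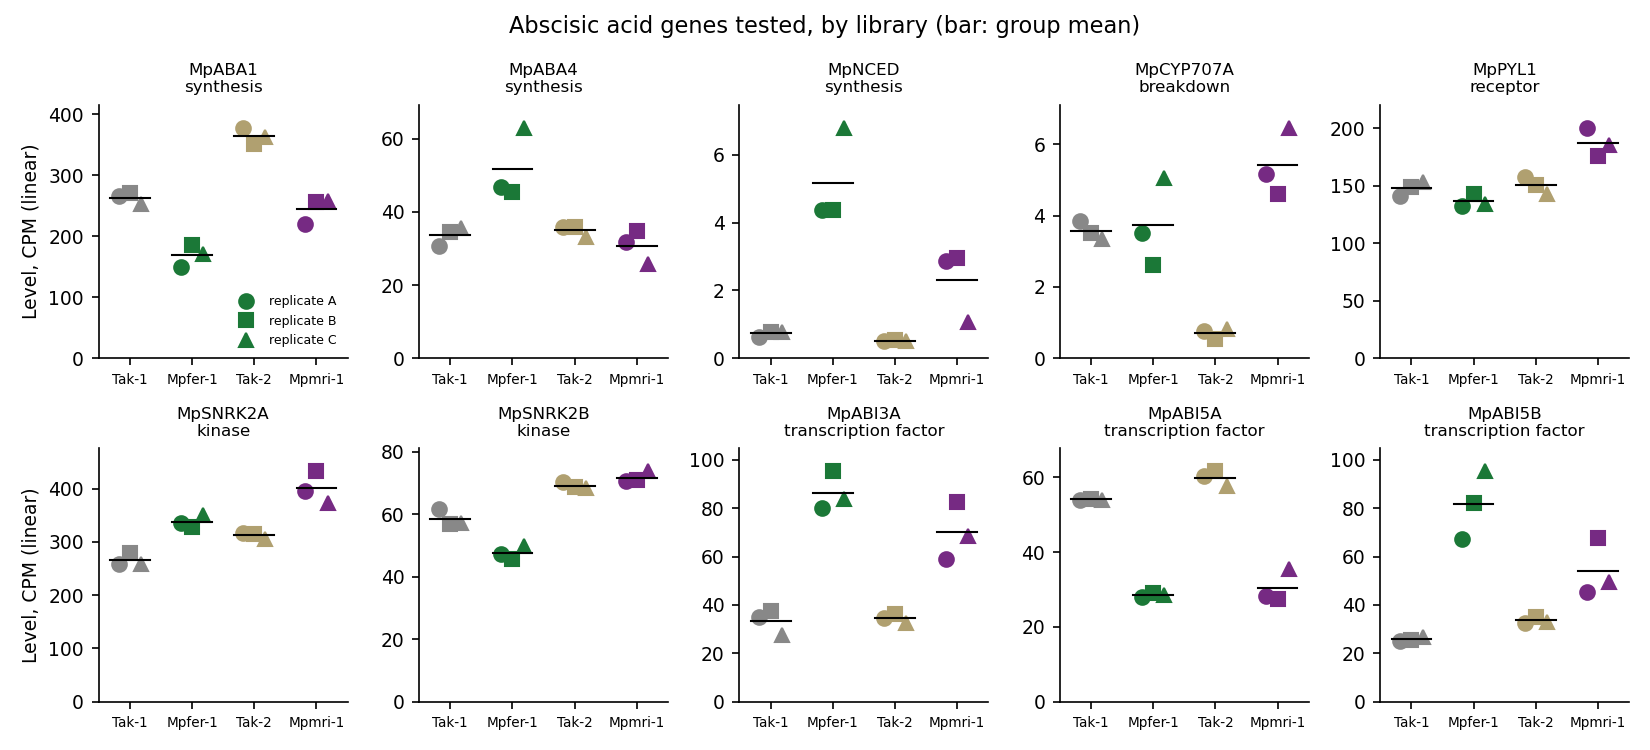
CPM of genes of the abscisic acid pathway in each of the 12 libraries, with each point 1 library and a bar at the mean of 3. MpNCED lies between 0.500 and 0.786 CPM in the wild types and between 1.05 and 6.79 CPM in the mutant lines, while MpABA1 is lower in each line than in its wild type.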

How the data were processed

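The authors deposited 1 table of estimated counts (expected counts) covering 23399 transcript models and not normalized between libraries. Per the submitters' processing notes, FastQC, fastp and DESeq2 were used, and per the labels' protocols a stranded mRNA kit was used and spike-in RNA was added. Not given in the sources used here were the quantifier, strand setting, genome build and annotation, so no coordinates or sequences are printed, and 0 rows of spike-in sequences were present. Of the values, 65.5% were whole within 1e-09.

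Counts were summed per gene (18336 genes, 958 at 0 in all libraries) and rounded, which changed a value by at most 0.5. Replicate pairs differed by more than sampling noise (chi-square per degree of freedom 4.94 to 112). Symbols came from a RefSeq table of the assembly MpTak2_v7.1, joined by locus number, an assumption checked by isoform number, which was equal in 90.2% of 17416 genes, against 76.3% when shifted by 1 gene. Symbols were found for 3095 genes.

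edgeR 4.0.16 in R 4.3.3 was used for quasi-likelihood F tests over 12 libraries with 1 mean per group, TMM factors (0.798 to 1.19) and the default filter by group (14044 genes tested). Benjamini-Hochberg adjustment covered all genes tested, with a threshold of 0.05. The test was also tried on simulated counts, with an outcome that is not reported or relied on here. The SE of a log2 fold change was derived from F as |log2 fold change| over its square root. Counting intervals are 95% exact (Clopper-Pearson) and cover counting error only. A group at 0 was set to 3 counts over the group. Folds of the 2 genes are of counts pooled over a group's libraries.

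The 2 genes and all lists were chosen with earlier results of these data known. Named genes are both members, the targeted genes, the 2 loci to each side of each member, the 3 genes most like each, the 5 LEA genes of highest level, LEA genes that fell in both lines and the abscisic acid list; other genes were named after their values had been seen. Protein relatives were not analysed here. Alternatives were library totals, DESeq2 1.42.0 size factors and test, limma 3.58.1 voom, no filter, a fold threshold, a replicate block and leaving out each library.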

Additional observations from a re-analysis of the deposited data

Results flagged for a closer look

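Of 42 named genes, 38 were tested for a difference between the effects in the 2 lines, the log2 fold change of the Mpmri-1-labelled libraries against Tak-2 minus that of Mpfer-1 against Tak-1, and 9 passed (edgeR, adjusted p under 0.05), where 37.3% of all genes did. MpLEA-like45 (-5.67) and MpLEA-like9 (-0.47) are among the 38, but their values are not read as tests. The changes behind them chose the genes, and the values depend on wild types near 0. Both targeted genes passed, with a difference of 0.87 for MpFER and 1.46 for MpMRI. Among LEA genes, the difference was 0.67 for MpLEA-like6, which rose in the Mpmri-1-labelled libraries, and 0.95 for MpLEA-like54, which fell less there. Among abscisic acid genes, the largest was 2.86 for MpCYP707A. For this gene Tak-2 was lower than Tak-1 (log2 fold change -2.33). The Mpmri-1-labelled libraries against Mpfer-1 did not pass (log2 fold change 0.53, edgeR adjusted p = 0.0699). MpABA4 had a difference of -0.81 and MpABI5B one of -0.97, with the higher log2 fold change in Mpfer-1 for both. MpPYL1 had a difference of 0.43 and MpSNRK2B one of 0.35. With library totals in place of TMM, the differences of MpPYL1 (0.12, edgeR adjusted p = 0.337), MpSNRK2B (0.037, edgeR adjusted p = 0.829) and MpLEA-like54 (0.65, edgeR adjusted p = 0.112) no longer passed. The MpLEA-like54 difference was also lost in 7 of the 12 fits with 1 library left out (edgeR adjusted p up to 0.0686).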

How the results depend on the processing

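The levels of MpLEA-like45 and MpLEA-like9 were far higher in both lines than in the wild types under every alternative run. Against Tak-1, the fitted log2 fold change of MpLEA-like45 moved from 16.26 to 15.75 with DESeq2 and 14.26 with voom, and that of MpLEA-like9 from 13.14 to 13.58 with voom and 12.61 to 16.59 with 1 library left out, where Tak-1 held 0 and 4 counts. Between the lines, MpLEA-like45 was at -1.63 with library totals, -1.67 with voom (past the threshold in both) and -2.11 to -0.70 with 1 library left out. For LEA genes between the lines, 3 (totals) and 2 (fold threshold) were higher, and 37 (totals), 27 (voom) and 8 to 40 (1 library left out) were lower. For abscisic acid genes between the lines, 0 were higher and 5 lower with totals. Leaving the genes of the 2 chromosomal runs out of the LEA list was an alternative chosen after seeing the data. It took the LEA genes called higher from 56 to 41 in Mpfer-1 and from 54 to 39 in the Mpmri-1-labelled libraries. The LEA genes of the runs passed the filter only through a mutant group and so had to be higher. The 39 LEA genes that passed on the wild types alone lie outside the runs, so their counts could not change. Named genes whose effects differed numbered 16 with DESeq2 and 8 to 15 with 1 library left out. With totals, MpFER in the Mpmri-1-labelled libraries turned to -0.052 and MpMRI in Mpfer-1 to 0.11 (-0.072 to 0.0066 with 1 library left out); neither was called with TMM.

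Over all pairs of groups, same-letter libraries had correlations of -0.355 to 0.240, others of -0.233 to 0.407. Between Mpfer-1 and Tak-1, same-letter libraries had 0.0306 to 0.240 and others -0.175 to 0.0335. Between Mpmri-1 and Tak-2, same-letter libraries had 0.0781 to 0.206 and others -0.197 to 0.122. Whether the letters pair a line with its own wild type cannot be told from these values. With the letter as a replicate block, the log2 fold change between the lines was -1.56 for MpLEA-like45 (edgeR adjusted p = 0.106) and -0.98 for MpLEA-like9 (edgeR adjusted p = 0.252), and no call on them changed. A planned search for the ACGTG motif was not run, since no promoter sequence was used here. The 3 libraries per group and their spread in Mpmri-1 limit the precision of the difference between the lines.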
